A study of Mus musculus with 6 samples.

Results

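The chaperone genes of the endoplasmic reticulum (ER) and of the heat shock response were followed in mouse mammary tumour cells kept for months under daily hydrogen peroxide (H2O2). The set holds 33 genes, named by symbol and looked up in the table of 24454 gene numbers that the study deposited, and all 33 were found. Of these, 20 belong to the ER and its unfolded protein response and 13 to the heat shock proteins of cytosol and mitochondria. The choice of genes used no measured value of these libraries, although it was made with earlier results of the same data known.

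All libraries came from 1 line, MTflEcad, which the labels describe as mammary tumour cells of the MMTV-Neu mouse strain, in which a mammary tumour virus promoter drives the Neu oncogene. The PBS cells received 0 µM H2O2, the I80 cells 80 µM and the DI150 cells 150 µM, daily for 7 months, and the 3 groups shared medium and serum. Total RNA was depleted of ribosomal RNA and sequenced, with 2 libraries per group. The series calls the libraries biological duplicates, but no source used here says that they came from separate cultures, so the p-values below measure the spread between these libraries. Each dose is represented by 1 long-term line, so the dose cannot be told apart from what happened to that line over the months. Bulk RNA also cannot tell fewer expressing cells from less RNA per cell.

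Chaperones hold unfolded proteins and help them fold. In the ER, BiP and GRP94 fold secreted proteins, calreticulin and calnexin hold glycoproteins, and disulfide isomerases form and reshuffle disulfide bonds by an oxidative chemistry that itself yields H2O2. When unfolded proteins build up, the sensors IRE1, ATF6 and PERK raise the synthesis of these helpers and of the machinery that sends misfolded proteins for degradation. In the cytosol, the transcription factor HSF1 does the same for the HSP70, HSP90, HSP40 and small heat shock proteins. Oxidative stress is known to engage both responses in many cells.

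Some of the ER genes share a promoter element, and it is shown here as background. RefSeq promoters of GRCm38.p6 (250 bases before and 50 after each start) were found for 26 members. The ER stress response element (ERSE) was searched on both strands as CCAAT, any 9 bases and CCACG, and its variant ERSE-II as ATTGG, any base and CCACG. Capitals mark the fixed letters, and 15 bases are printed to either side.
Hspa5 chr2:34772010-34772058, + strand: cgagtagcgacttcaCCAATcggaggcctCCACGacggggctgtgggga
Hsp90b1 chr10:86705518-86705566, + strand: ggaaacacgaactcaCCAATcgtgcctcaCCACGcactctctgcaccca
Calr chr8:84847060-84847108, + strand: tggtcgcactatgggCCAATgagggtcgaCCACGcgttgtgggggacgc
Pdia6 chr12:17266476-17266524, + strand: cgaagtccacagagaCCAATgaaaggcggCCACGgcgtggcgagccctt
Creld2 chr15:88819505-88819553, - strand: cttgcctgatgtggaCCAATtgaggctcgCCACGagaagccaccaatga
Syvn1 chr19:6046517-6046565, + strand: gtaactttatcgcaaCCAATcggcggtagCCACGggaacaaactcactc
Herpud1 (ERSE-II) chr8:94386362-94386402, + strand: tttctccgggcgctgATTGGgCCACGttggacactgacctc
The full element occurred in 8 of the 17 ER members with a promoter and in 0.137% of all 27025 genes with a promoter of the same length. Canx and Dnajc3 also held it, and Hsp90b1 held it at a second place. ERSE-II occurred in 1 ER member and in 0.0444% of all genes with a promoter. None of the 9 heat shock members with a promoter held either. A match is a description of the letters and not evidence of binding.

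The libraries held 21017849 to 26608715 reads assigned to genes, so that 1 read was worth 0.0376 to 0.0476 CPM, the reads of a gene scaled to a library total of 1000000. Over the 11428 tested genes, those averaging 1 CPM or more, replicate libraries correlated at 0.991 in PBS, 0.998 in I80 and 0.997 in DI150 on the log2 scale. The labelled epithelial origin was checked on 6 markers, whose summed level was 9026 to 9409 CPM in PBS, 3393 to 3397 in I80 and 3186 to 3518 in DI150. Krt19 was at 0 in all treated libraries, while Epcam was at 583 and 629 CPM in PBS, 716 and 648 in I80, but 1109 and 1002 in DI150, where it was called higher than in PBS. The 8 immune markers summed to 9.81 to 17.2 CPM in PBS and to 1.90 to 2.19 in the treated libraries, with Csf1r at 0 in the latter and Adgre1 and Cd3e at 0 throughout. The 8 fibroblast markers summed to 21.8 to 24.0 CPM in every library, but single genes moved in opposite directions. Col1a2 was at 15.3 CPM in both PBS libraries and at 0 in all treated ones, Pdgfra went from 5.04 and 5.50 in PBS to between 14.5 and 19.0 in the treated libraries, and Col1a1 from 1.47 and 2.75 to 8.90 in both I80 libraries and to 3.85 and 3.62 in DI150. All 3 of these were called in both comparisons with PBS. The endothelial and adipocyte markers each summed to under 1 CPM. The part that these marker levels play in the results below was not tested.

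Per kilobase of exon, Hsp90ab1, the constitutive cytosolic HSP90, stood far above every other member, at 1896 ± 219 CPM per kilobase in PBS (mean ± SD of 2 libraries, as throughout). Calr followed with 442 ± 1.13. Hsp90b1 at 287 ± 5.64, Hspd1 at 260 ± 48.4 and Hspa5 at 234 ± 23.1 came next, and the spreads of Hspd1 and its neighbours overlapped. At the low end were Ern1 at 3.13, Hspb1 at 2.47 and Hspa1a at 0.539. In I80 Hsp90ab1 at 1334 and Calr at 301.5 kept the first places, whereas Hsph1, an HSP110 nucleotide exchange factor, went from rank 13 in PBS to rank 18, and Hyou1, the ER member of the same family, from rank 15 to rank 12.

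**Figure D1:**
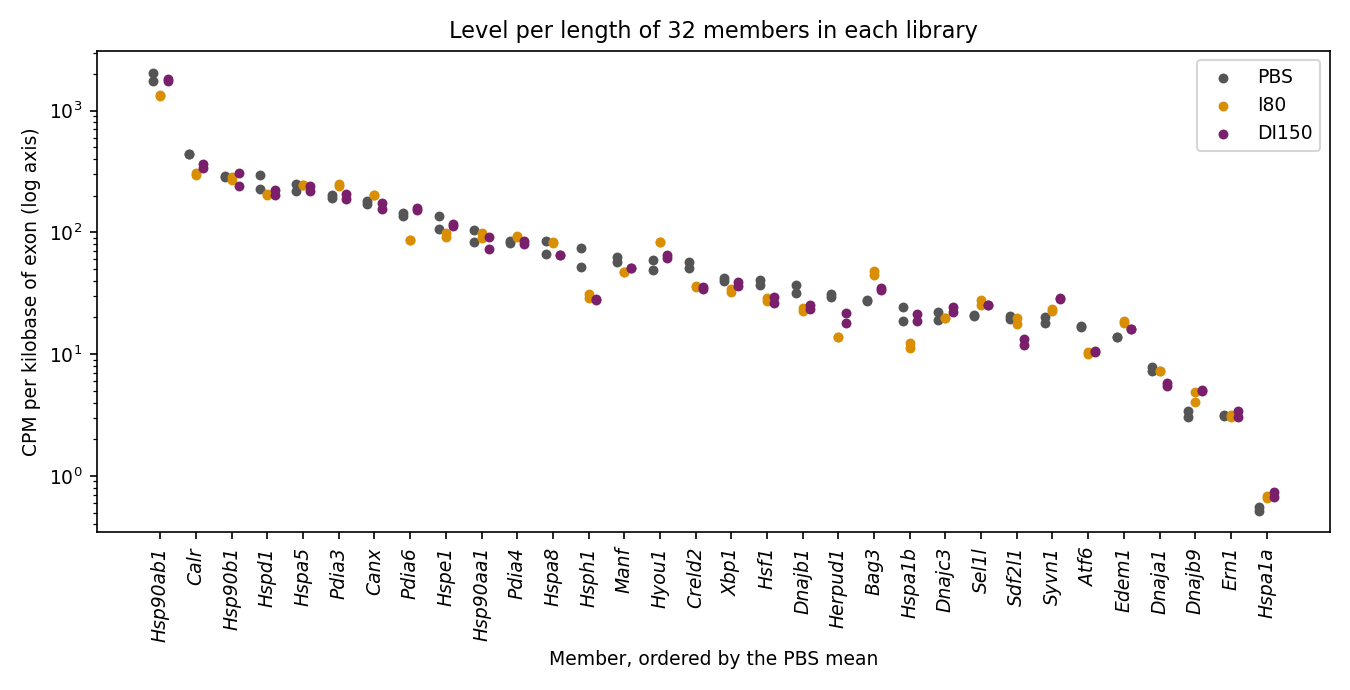
Level of each member in CPM per kilobase of exon (log axis), 1 point per library, coloured by group and ordered by the PBS mean, for the 32 tested members. Hsp90ab1 lies above all other members in every library, and Hspa1a lies lowest.

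Between I80 and PBS, ER and cytosolic chaperones did not move as a block. Of the 32 members tested, 7 were higher in I80 (Hyou1, Pdia3, Dnajb9, Edem1, Sel1l, Syvn1 and Bag3) and 14 were lower, with 11 not called. The test was limma on log2(CPM + 0.5), with a call at a Benjamini-Hochberg adjusted p under 0.05 over all tested genes. Across all tested genes 66.4% were called, 32.3% higher and 34.2% lower, so the share of called members was close to the background. The groups did not overlap for 25 of the 32 members, against 83.7% of all genes. Calls among members leaned lower mainly on the heat shock side, where 1 gene rose and 7 fell of 12 tested (median log2 difference -0.34), while 6 ER genes rose and 7 fell of 20 (median -0.03). The median over all tested genes was -0.00205.

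DI150 against PBS gave 6 members higher and 10 lower, with 16 not called. In this comparison 68.7% of all tested genes were called, 32.7% higher and 36.1% lower, so fewer members than that background share passed the test. Among ER members 5 rose and 6 fell of 20, and among heat shock members 1 rose and 4 fell of 12. The groups did not overlap for 21 of 32 members, against 83.5% of all genes. Both treated groups are compared with the same PBS libraries, so a level of these that is off moves both comparisons alike.

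The members changed by little for this data set. Their median absolute log2 difference was 0.34 in I80 and 0.237 in DI150, against 0.455 and 0.479 over all tested genes. Only Herpud1 and Hsph1 were called with a change of at least 2-fold in I80, and only Hsph1 in DI150, while 22.2% and 23.0% of all tested genes were. This background, all genes averaging 1 CPM or more, was not matched to the members by level. Hspb1 stood outside the test and is described last.

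**Figure D2:**
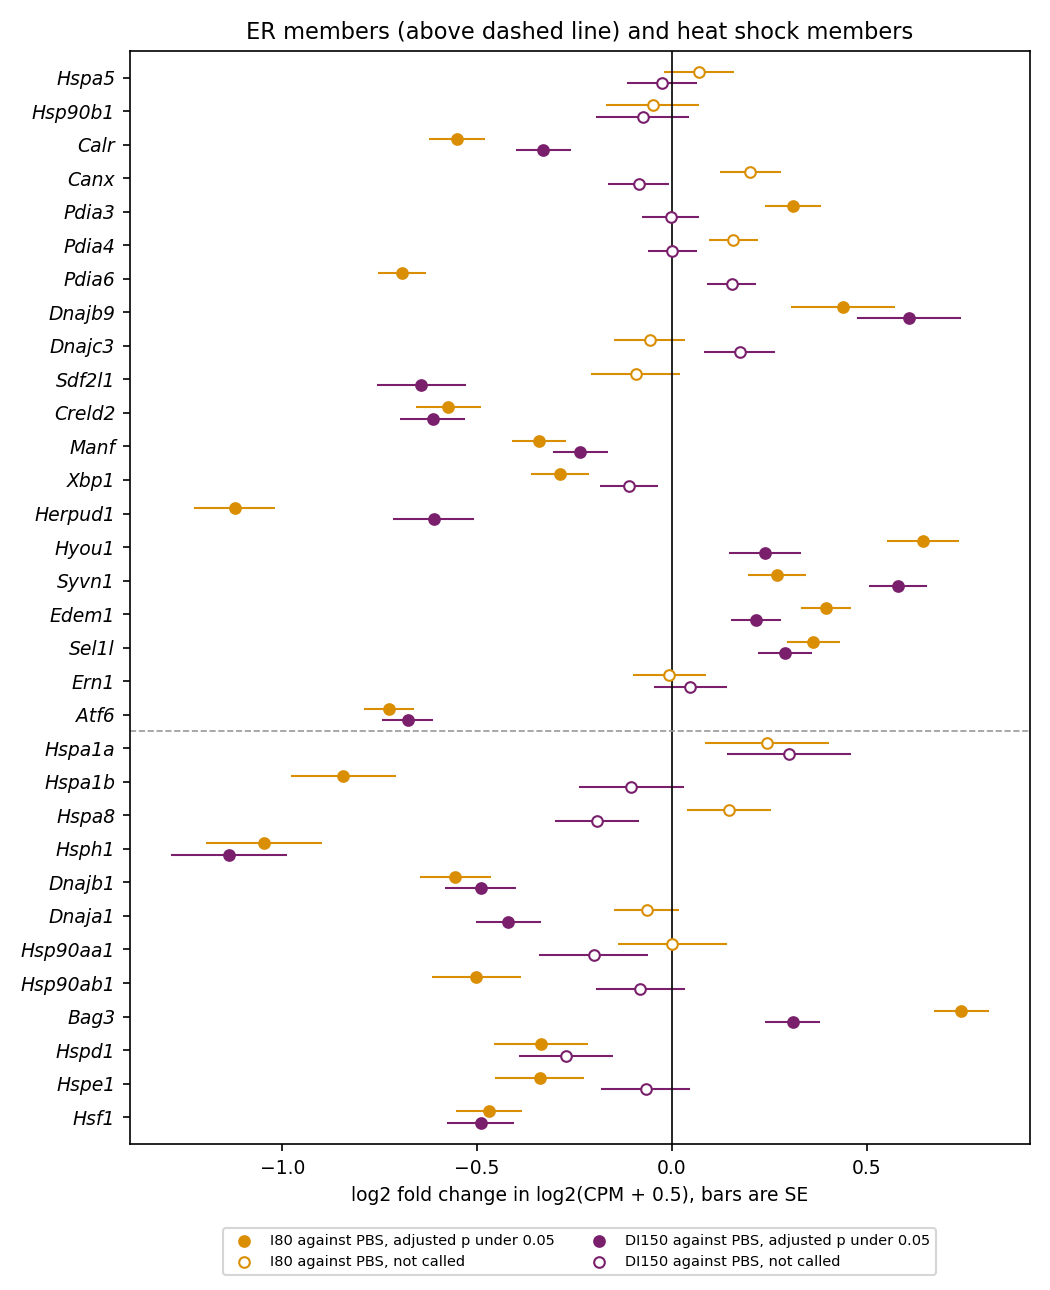
Log2 difference of each tested member in I80 and in DI150 against PBS, on the log2(CPM + 0.5) scale, with bars for the SE from limma. Filled points have an adjusted p under 0.05, and in I80 Herpud1 and Hsph1 lie furthest to the left and Bag3 and Hyou1 furthest to the right.

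**Figure D3:**
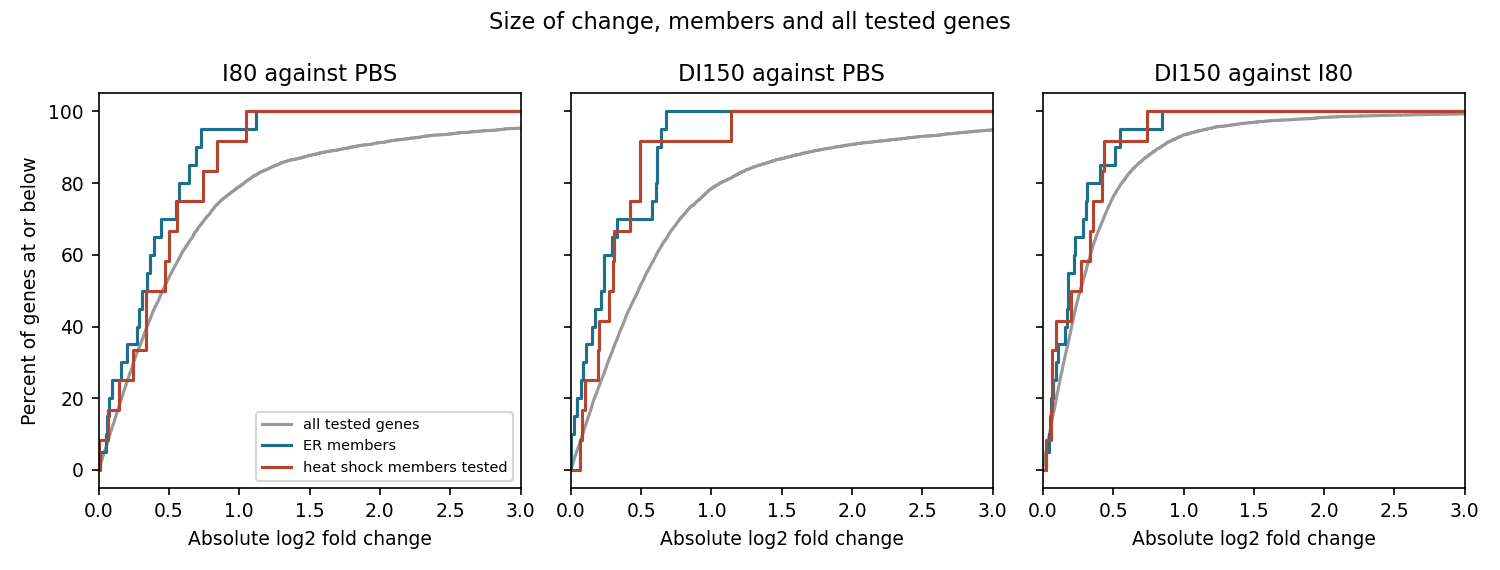
Percent of genes at or below each absolute log2 difference, for the ER members, the tested heat shock members and all tested genes, 1 panel per comparison. Members reach at most 1.12 in I80 and 1.14 in DI150, whereas 21.0% and 21.6% of all genes pass 1.

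Among the chaperones of the ER lumen, the abundant general ones held their level. Hspa5 (chr2:34772090-34776529) encodes BiP, the HSP70 of the ER and the usual readout of ER stress. Its level was 939 and 817 CPM in PBS, compared with 912 and 927 in I80 and 824 and 899.6 in DI150. The groups overlapped with PBS, and the log2 difference was 0.07 in I80 (95% interval -0.14 to 0.28) and -0.02 in DI150 (-0.23 to 0.19). Hsp90b1, encoding GRP94, the HSP90 of the ER, gave 799 and 821 CPM in PBS, then 758 and 808 in I80, with 675 and 876 in DI150. These values also overlapped with PBS, with intervals of -0.33 to 0.23 and -0.35 to 0.20. Without DI150 replicate 3, Hsp90b1 was called lower in DI150 (limma adjusted p = 0.0435). Of its transcript windows of 81 bases, the read length, 9.07% also occur in other genes.

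The lectin chaperones, which hold newly made glycoproteins, parted from each other. Calr (calreticulin, chr8:84842088-84846931) was at 967 and 963 CPM in PBS, against 649.6 and 667 in I80 and 739 and 798 in DI150. All treated libraries lay below both PBS libraries, 1.47-fold lower in I80 (limma adjusted p = 0.000291) and 1.26-fold lower in DI150 (limma adjusted p = 0.00405). Canx (calnexin), its membrane-bound relative, was at 773 and 736 CPM in PBS, compared with 868 and 866 in I80 and 673 and 752 in DI150. I80 lay above the other groups, but its 1.15-fold ratio over PBS missed the threshold (limma adjusted p = 0.0524). It passed with only the 4 libraries compared (limma adjusted p = 0.0447) and in DESeq2 (adjusted p = 0.0247).

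Hyou1 (chr9:44379490-44392369), the large ER chaperone GRP170 that exchanges nucleotide on BiP, was at 281 and 233 CPM in PBS, then 401 and 400.0 in I80, with 295 and 309.8 in DI150. Both I80 libraries stood above all others, 1.56-fold over PBS (log2 difference 0.64 ± 0.09 SE, limma adjusted p = 0.000495). DI150 lay just above PBS at 1.18-fold (limma adjusted p = 0.0481), and this call was lost without PBS replicate 2 (0.135), without either DI150 library (0.097 and 0.189), without either I80 library (0.09), with TMM scaling (0.0586) and in edgeR (0.0685).

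Of the disulfide isomerases, Pdia6 gave the sharpest difference between the treated groups. Pdia6 (chr12:17266589-17284785), an isomerase that also restrains the sensor IRE1, was at 314 and 297 CPM in PBS, against 188 and 189.7 in I80 and 335 and 346 in DI150. I80 was 1.62-fold lower than PBS (log2 difference -0.69 ± 0.06, limma adjusted p = 4.39e-05), whereas DI150 was 1.11-fold above PBS and not called (limma adjusted p = 0.0590, or 0.0211 without PBS replicate 1). Pdia3, the isomerase that works with calreticulin and calnexin, was at 562 and 534 CPM in PBS, compared with 670.5 and 688 in I80 and 523 and 571 in DI150. It rose in I80 by 1.24-fold (limma adjusted p = 0.00645, but 0.0621 without I80 replicate 2), while DI150 overlapped with PBS. Pdia4 was at 203 and 195 CPM in PBS, then 219.8 and 223 in I80, with 194 and 204 in DI150. It was not called in either group (I80 limma adjusted p = 0.0579, but 0.0353 without PBS replicate 1).

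The small ER stress proteins and J-domain co-chaperones, which feed BiP with clients, went in both directions. Creld2, an ER stress-inducible protein, was at 78.1 and 69.1 CPM in PBS, against 48.7 and 49.7 in I80 and 48.6 and 47.1 in DI150. Each treated library lay below both PBS libraries, with log2 differences of -0.57 in I80 and -0.61 in DI150 (limma adjusted p = 0.000538 and 0.000359). Manf, a small secreted protein that is made under ER stress, was at 155 and 139.8 CPM in PBS, compared with 116 and 116 in I80 and 125 and 125 in DI150. It fell in both, 1.27-fold in I80 (limma adjusted p = 0.00336) and 1.18-fold in DI150 (limma adjusted p = 0.0181, but 0.0714 without either DI150 library). Sdf2l1, part of a BiP complex, was at 21.4 and 22.8 CPM in PBS, then 21.9 and 19.5 in I80, with 14.9 and 13.1 in DI150. It fell in DI150 by 1.58-fold (limma adjusted p = 0.00156) and overlapped with PBS in I80.

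Dnajb9, a J-domain partner of BiP that represses IRE1, went the other way. It was at 7.55 and 8.41 CPM in PBS, against 12.1 and 10.0 in I80 and 12.4 and 12.5 in DI150. No treated library reached down to PBS, and the ratios were 1.38-fold in I80 (limma adjusted p = 0.0199) and 1.56-fold in DI150 (limma adjusted p = 0.00433). The I80 call was lost without PBS replicate 1 (0.0779) or I80 replicate 1 (0.165). Dnajc3 (P58IPK), another BiP co-chaperone, gave 98.1 and 115 CPM in PBS, compared with 101 and 103 in I80 and 114 and 126 in DI150, which overlapped with PBS in both comparisons. It passed in DI150 only when PBS replicate 2 was left out (limma adjusted p = 0.0249).

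The degradation machinery rose except for Herpud1. Syvn1 (HRD1, chr19:6046576-6053718) is the ubiquitin ligase at the core of ER-associated degradation. It was at 66.5 and 73.8 CPM in PBS, then 83.7 and 85.5 in I80, with 106 and 104 in DI150. The groups were fully separated and ordered, with log2 differences of 0.27 ± 0.07 in I80 (limma adjusted p = 0.0130) and 0.58 ± 0.07 in DI150 (limma adjusted p = 0.000267). The I80 call was lost without I80 replicate 1 (0.0648) or replicate 2 (0.0913).

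Sel1l, the adaptor that holds HRD1 in its complex, was at 132 and 129 CPM in PBS, against 176 and 160.3 in I80 and 160.0 and 159 in DI150. The lectin Edem1, which hands mannose-trimmed glycoproteins to this complex, was at 81.2 and 80.7 CPM in PBS, compared with 109 and 104 in I80 and 94.4 and 93.8 in DI150. All treated libraries of both genes lay above PBS, by 1.29-fold and 1.32-fold in I80 and by 1.22-fold and 1.16-fold in DI150 (limma adjusted p between 0.000971 and 0.0180). The DI150 call of Edem1 was lost without DI150 replicate 1 (0.0739) or replicate 3 (0.065). Herpud1 (chr8:94386429-94395371), the ER membrane protein that tethers the HRD1 complex, was at 57.1 and 60.8 CPM in PBS, then 26.8 and 26.8 in I80, with 42.2 and 34.9 in DI150. It fell 2.20-fold in I80 (log2 difference -1.12 ± 0.10, limma adjusted p = 5.17e-05) and 1.53-fold in DI150 (limma adjusted p = 0.00126), and the groups did not overlap.

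Of the sensors and their transcription factors, Atf6 and Xbp1 fell and Ern1 was not called. Atf6 (chr1:170704457-170868585), a membrane-bound factor that is cleaved under ER stress, was at 122 and 123 CPM in PBS, against 75.8 and 72.2 in I80 and 77.4 and 75.6 in DI150. The treated libraries overlapped with each other and lay well below PBS, by 1.66-fold in I80 and 1.60-fold in DI150 (limma adjusted p = 4.22e-05 and 5.77e-05). Xbp1, whose mRNA is spliced by IRE1, was at 100.5 and 94.8 CPM in PBS, compared with 81.8 and 78.1 in I80 and 94.3 and 86.8 in DI150. It fell 1.22-fold in I80 (limma adjusted p = 0.0101, but 0.0875 without I80 replicate 2) and was not called in DI150. The gene counts do not separate spliced from unspliced Xbp1. Ern1, encoding IRE1 itself, stayed between 25.0 and 27.8 CPM in all 6 libraries, with a log2 difference in I80 of -0.01 (95% interval -0.23 to 0.21).

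Read against the promoter element printed above, genes that carry ERSE or ERSE-II went in both directions. Of the 9, Syvn1 rose in I80, Calr, Creld2, Herpud1 and Pdia6 fell, and 4 were not called. In DI150, 1 rose, 3 fell and 5 were not called. Of the 8 ER members with a promoter and neither element, 4 rose and 1 fell in I80, and 3 rose and 1 fell in DI150. Hyou1, Manf and Atf6 had no promoter here and are in neither set. Over all tested genes 32.3% were called higher and 34.2% lower in I80, and 32.7% and 36.1% in DI150. Whether the sets differ was not tested. The unfolded protein response element searched as TGACGTGG was in none of the 26 members with a promoter and in 0.714% of all genes with a promoter.

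**Figure D4:**
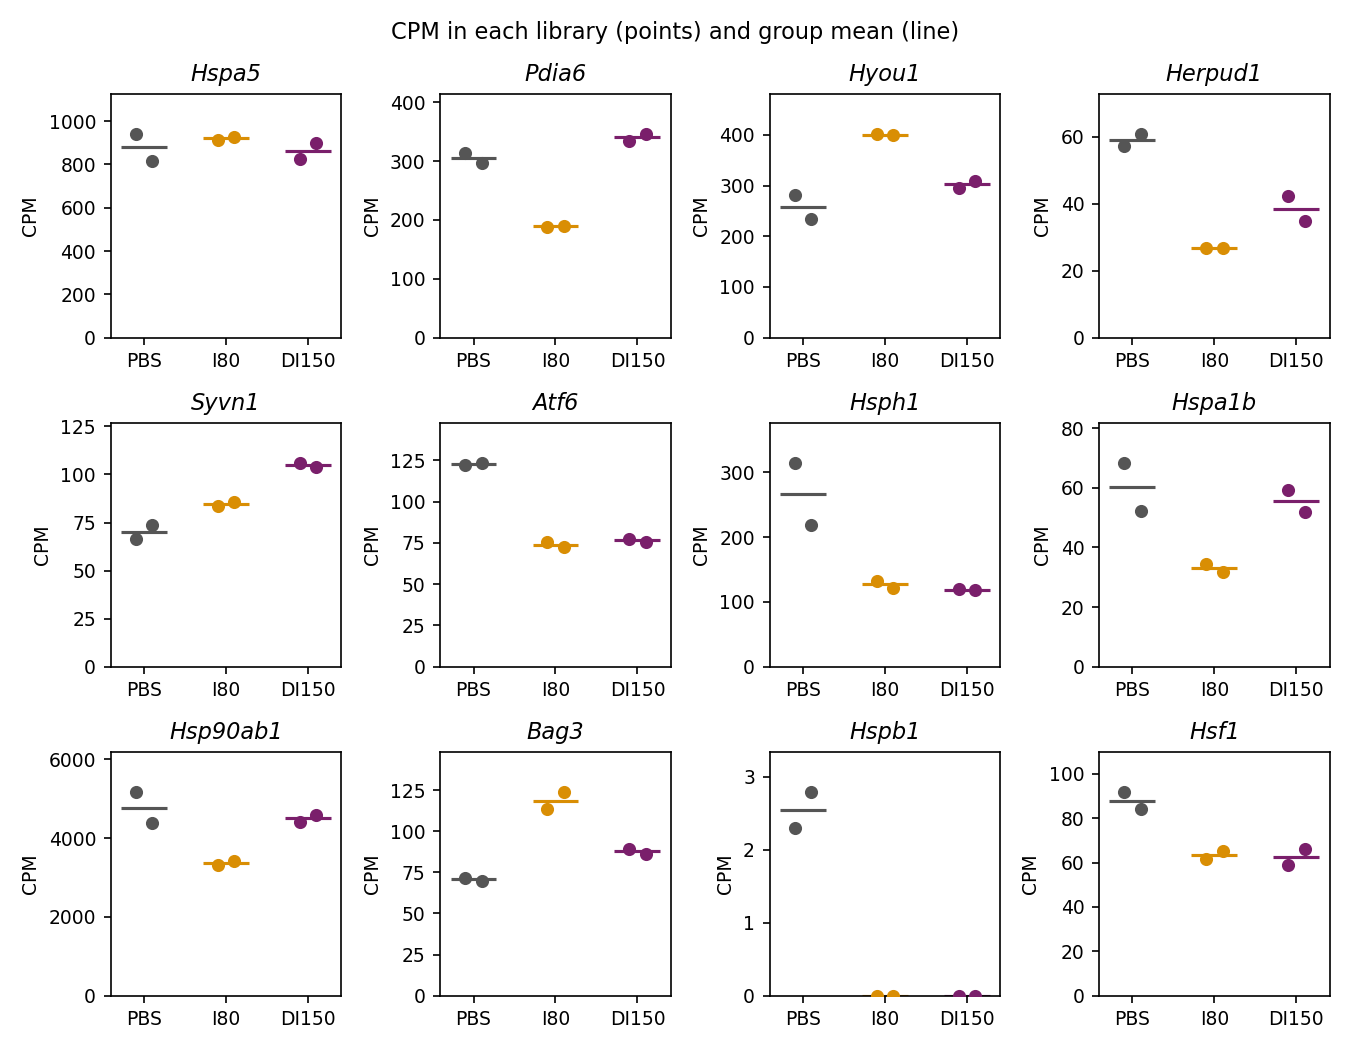
CPM of 12 members in each library (points, linear axis from 0) with the group mean (line). The 3 groups do not overlap for Syvn1, Herpud1, Bag3, Hyou1, Hsph1 and Pdia6. Pdia6, Hspa1b and Hsp90ab1 stand low in I80 only, and Hspb1 is at 0 in all treated libraries.

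Among the 4 cytosolic HSP70 and HSP110 members, Hsph1 had the largest fall. Hsph1 (HSP110, chr5:149616843-149636498), which releases nucleotide from HSP70 and works on aggregates with it, was at 314 and 219 CPM in PBS, then 132 and 122 in I80, with 119 and 119 in DI150. Treated libraries lay close together and below PBS, by 2.10-fold in I80 (log2 difference -1.05 ± 0.15, limma adjusted p = 0.000492) and 2.24-fold in DI150 (-1.14 ± 0.15, limma adjusted p = 0.000301). The PBS libraries themselves differed widely.

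The stress-inducible HSP70 pair, Hspa1a (chr17:34969359-34972156) and Hspa1b (chr17:34956429-34959238), lies 10120 bases apart and is nearly identical, so reads may be split between them. Windows of 81 bases shared with other genes make up 60.6% of Hspa1a and 54.4% of Hspa1b, and how the authors assigned such reads is not given in the sources used here. Hspa1b was at 68.3 and 52.3 CPM in PBS, against 34.6 and 31.7 in I80 and 59.4 and 52.0 in DI150. I80 stood apart from both other groups, 1.82-fold below PBS (log2 difference -0.84 ± 0.13, limma adjusted p = 0.000897), while DI150 overlapped with PBS. Hspa1a was at 1.54 and 1.66 CPM in PBS, compared with 1.95 and 2.02 in I80 and 2.00 and 2.18 in DI150. It was not called (limma adjusted p = 0.210 and 0.129), except with quantile normalization (0.00898 and 0.00783) and, in DI150, without PBS replicate 2 (0.0408).

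Hspa8, the constitutive HSP70, was at 202 and 158 CPM in PBS, then 199.7 and 196 in I80, with 157 and 156 in DI150. I80 lay within the wide PBS range and DI150 just below it, and neither comparison with PBS was called. Without PBS replicate 1, I80 was called higher (limma adjusted p = 0.00365), and without PBS replicate 2, DI150 was called lower (0.00224). Shared windows make up 67.2% of Hspa8, so its count is uncertain.

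Of the HSP70 co-chaperones, Bag3 rose and the HSP40 genes fell or did not pass. Bag3 (chr7:128523583-128546981), which links HSP70 to small heat shock proteins and autophagy, was at 71.3 and 70.0 CPM in PBS, against 114 and 124 in I80 and 89.1 and 86.4 in DI150. The groups were fully separated, with I80 1.68-fold over PBS (log2 difference 0.74 ± 0.07, limma adjusted p = 5.86e-05) and DI150 1.24-fold (limma adjusted p = 0.00538). Dnajb1, a stress-inducible HSP40, was at 118 and 102 CPM in PBS, compared with 77.2 and 71.9 in I80 and 81.4 and 74.8 in DI150, a fall of 1.48-fold and 1.41-fold (limma adjusted p = 0.00102 and 0.00193). Dnaja1, a constitutive HSP40, was at 45.5 and 42.3 CPM in PBS, then 41.9 and 41.8 in I80, with 31.6 and 33.7 in DI150. It fell in DI150 by 1.34-fold (limma adjusted p = 0.00262) and was not called in I80, and 25.7% of its windows are shared.

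The HSP90 genes differed between isoforms. Hsp90ab1 (chr17:45567778-45573261) was at 5169 and 4387 CPM in PBS, against 3314 and 3410.2 in I80 and 4409 and 4596 in DI150. I80 lay below all other libraries, 1.42-fold below PBS (limma adjusted p = 0.00546, but 0.0577 without I80 replicate 1), whereas DI150 overlapped with PBS. Hsp90aa1, the inducible isoform, was at 356 and 284 CPM in PBS, compared with 303 and 334 in I80 and 246 and 311 in DI150. All groups overlapped, and the log2 difference in I80 was 0.00 (95% interval -0.32 to 0.33). Shared windows make up 51.9% of Hsp90aa1 and 0.246% of Hsp90ab1.

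The mitochondrial chaperonin genes Hspd1 (HSP60, chr1:55077833-55088243) and Hspe1 (HSP10, chr1:55088148-55091317) are transcribed head to head, with gene spans overlapping by 96 bases. Their promoter window holds a heat shock element, searched as GAA, TTC and GAA with 2 free bases in each gap, in overlapping matches on both strands, and 1 of these is printed as the element that the pair has in common.
Hspd1 and Hspe1 chr1:55088049-55088091, + strand: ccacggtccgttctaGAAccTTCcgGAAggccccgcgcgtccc
Capitals mark the fixed letters, and 0.662% of all genes with a promoter held the element. It was in 3 of the 9 heat shock members with a promoter, Hspd1, Hspe1 and Hsph1. In Hsph1 it lay after the start. None of the 17 ER members with a promoter held it. Hsp90aa1, Hsp90ab1, Hspa8 and Hsf1 had no promoter here and were not searched. Hspd1 was at 713 and 547 CPM in PBS, then 489 and 500.4 in I80, with 493 and 543 in DI150. Hspe1 was at 105 and 82.2 CPM in PBS, against 75.8 and 70.9 in I80 and 86.5 and 90.9 in DI150. In I80 both genes lay below both PBS libraries, 1.27-fold and 1.28-fold (limma adjusted p = 0.0404 and 0.0309), but neither call held without PBS replicate 1, either I80 library or either DI150 library (0.0551 to 0.156). In DI150 neither was called, although both passed without PBS replicate 2 (0.00556 and 0.0305). Shared windows make up 31.8% of Hspd1 and 27.2% of Hspe1.

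Hsf1, the transcription factor of the heat shock response, was at 91.7 and 84.2 CPM in PBS, compared with 61.7 and 65.0 in I80 and 58.9 and 66.0 in DI150. Treated libraries overlapped with each other and lay below PBS, by 1.39-fold in I80 and 1.41-fold in DI150 (limma adjusted p = 0.00178 and 0.00138).

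Hspb1 (HSP25, a small heat shock protein that holds unfolding clients, chr5:135887919-135889563) was absent from the counts of every treated library. It had 61 and 69 reads in PBS, or 2.29 and 2.79 CPM, and 0 reads in all 4 treated libraries. With a floor of 3 reads per library, I80 was at least 21.1-fold lower and DI150 at least 19.8-fold lower. Its mean was below the 1 CPM filter, so it had no part in the counts above. Without the filter, limma called it in both comparisons (adjusted p = 1.49e-05 and 1.37e-05). Shared windows make up 46.2% of it.

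The PBS libraries differed from each other in the heat shock genes. PBS replicate 1 was the higher in 11 of the 12 tested heat shock members (91.7%, median log2 difference 0.282), against 42.8% of all tested genes (median -0.0401) and 13 of 20 ER members. In I80 replicate 1 was the higher in 6 of 12 and in DI150 in 5 of 12. The falls of Hsph1, Dnajb1, Hspa1b, Hsp90ab1 and Hsf1 in I80 were called whichever PBS library was left out. The same held for Hsph1, Dnajb1, Dnaja1 and Hsf1 in DI150.

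DI150 against I80 asks whether the treated lines differ from each other. Of 32 members, 6 were higher in DI150 (Pdia6, Hspa1b, Herpud1, Hsp90ab1, Syvn1 and Calr) and 7 lower (Sdf2l1, Bag3, Hyou1, Dnaja1, Hspa8, Pdia3 and Canx), with 19 not called. Over all tested genes 43.8% were called, 21.9% in each direction, which is close to the share of members. No member was called with a 2-fold difference, against 8.04% of all tested genes. The groups did not overlap for 24 of 32 members, against 78.5% of all genes. The median absolute log2 difference was 0.191 among members and 0.264 over all genes.

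Pdia6 gave the largest difference among members, with DI150 1.80-fold above I80 (log2 difference 0.85 ± 0.06, limma adjusted p = 8.86e-05), and Hspa1b followed at 1.68-fold (limma adjusted p = 0.00405). Herpud1 was 1.44-fold and Hsp90ab1 1.34-fold higher in DI150 (limma adjusted p = 0.00667 and 0.0207). For these 4 genes I80 lay below PBS, and DI150 lay nearer to PBS. On the falling side Sdf2l1 was 1.48-fold, Bag3 1.35-fold, Hyou1 1.32-fold and Dnaja1 1.28-fold lower in DI150 (limma adjusted p = 0.00716, 0.00256, 0.0102 and 0.0115). Syvn1 was 1.24-fold higher, the 1 member that rose in each of the 3 comparisons. Calls here rested on single libraries more than those against PBS. Without I80 replicate 1, 10 of the 13 missed the threshold (limma adjusted p 0.0507 to 0.224), without I80 replicate 2, 9 (0.0517 to 0.162), without DI150 replicate 1, 8 (0.0541 to 0.134) and without DI150 replicate 3, 5 (0.0537 to 0.173). Pdia6, Hspa1b and Bag3 were among the losses in none of these.

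Several members shared their outcome in all 3 comparisons. Creld2, Manf, Atf6, Hsph1, Dnajb1 and Hsf1 fell in both treated groups, with no call between them. Dnajb9, Edem1 and Sel1l rose in both, again with no call between them. Pdia6, Hspa1b and Hsp90ab1 fell in I80, were not called in DI150 against PBS, and were higher in DI150 than in I80. Calr and Herpud1 fell in both treated groups and were also higher in DI150 than in I80. In 7 members (Hspa5, Hsp90b1, Pdia4, Dnajc3, Ern1, Hspa1a and Hsp90aa1) none of the comparisons was called.

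The wider chaperone and stress pathways, 9 lists with 139 tested genes outside the set, had 49 genes higher and 45 lower in I80, 46 higher and 45 lower in DI150, and 31 higher and 42 lower in DI150 against I80. The shares called were 67.6%, 65.5% and 52.5%, against the 66.4%, 68.7% and 43.8% of all tested genes. Apart from Trib3, and from the calls of Ddit3 and Atf4 against PBS, the genes named here kept their call in every alternative setting for the comparison they are named in.

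Of the 11 ER sensor and PERK-arm genes tested, 4 rose and 3 fell in I80, and 5 rose and 3 fell in DI150. Creb3l2, an ER-membrane transcription factor related to ATF6, rose 2.51-fold in I80 (8.54 to 21.5 CPM, limma adjusted p = 0.000208). The proteases that cleave ATF6 fell, Mbtps1 by 1.69-fold in I80 and Mbtps2 by 1.98-fold in DI150 (limma adjusted p = 2.02e-05 and 2.79e-05), while Atf6b rose 1.72-fold in DI150. Ddit3 (CHOP) and Atf4, of the PERK arm, were higher in DI150 than in I80, by 2.18-fold and 1.48-fold (limma adjusted p = 0.00359 and 0.00311). Against PBS both were also called higher in DI150, by 1.55-fold and 1.47-fold (limma adjusted p = 0.0192 and 0.00133), and not called in I80. These calls against PBS were not followed through the alternative settings. In DI150 against I80, 5 of the 11 genes were higher in DI150, 2 were lower and 4 were not called. The lower ones were Mbtps2 by 1.56-fold and Trib3 by 1.60-fold (limma adjusted p = 0.000939 and 0.0099). The Trib3 call was not kept in every setting.

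Among 26 tested genes of ER folding, 11 rose and 8 fell in I80, and 9 rose and 6 fell in DI150. Ero1a, the oxidase that recharges disulfide isomerases and gives off H2O2, rose from 56.8 CPM in PBS to 149.5 in I80 and 220.5 in DI150, or 2.63-fold and 3.88-fold (limma adjusted p = 3.52e-05 and 5.64e-06). Pdia5, a further isomerase, rose 4.08-fold and 4.24-fold from 2.55 CPM. P4hb, the isomerase PDI that Ero1a oxidises, fell from 1116 CPM to 604 in I80 and 559.7 in DI150, or 1.85-fold and 1.99-fold (limma adjusted p = 2.26e-05 and 1.11e-05). Creld1, the paralogue of Creld2, fell 3.31-fold in I80 and 5.98-fold in DI150. Uggt1, the glucosyltransferase that returns misfolded glycoproteins to calnexin and calreticulin, was 1.79-fold higher in DI150 than in I80.

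In the degradation and translocation list, 9 of 27 tested genes rose and 8 fell in I80, and 7 rose and 9 fell in DI150. The lectin Os9 rose 1.85-fold in DI150 (93.3 to 173 CPM), while the translocon subunit Sec61b fell 1.88-fold (limma adjusted p = 6.65e-05 and 0.000104).

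In the cytosolic HSP70 list, 7 of 21 tested genes rose and 7 fell in I80, and 7 rose and 5 fell in DI150. Hspa4l, a further HSP110 gene, fell from 98.6 CPM to 34.9 in I80 and 27.0 in DI150, or 2.82-fold and 3.65-fold (limma adjusted p = 4.5e-06 and 1.28e-06). Bag5, a relative of Bag3, rose 2.10-fold and 2.22-fold (limma adjusted p = 1.18e-05 and 7.27e-06). Among 15 HSP90 co-chaperones 7 rose and 4 fell in I80, and 4 rose and 4 fell in DI150. Ppp5c rose 1.46-fold and 1.85-fold, and Rpap3 fell 1.93-fold and 1.96-fold.

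The mitochondrial list of 15 genes had 7 higher and 3 lower in I80, and 10 higher and 3 lower in DI150. Within it Dnaja3, a mitochondrial HSP40, rose 1.63-fold and 1.39-fold, whereas Hspa9, the mitochondrial HSP70, fell 1.60-fold in DI150 (1006 to 631 CPM, limma adjusted p = 0.000282). Of the 14 genes of the CCT chaperonin and prefoldin, which fold actin and tubulin, 3 rose and 6 fell in I80, and 2 rose and 10 fell in DI150. Cct5 fell 1.76-fold and 1.93-fold, while Cct2, a subunit of the same ring, rose 1.41-fold in DI150 (limma adjusted p = 0.000693). Of 4 small heat shock genes tested, Cryab fell 1.63-fold in I80 and was 1.78-fold higher in DI150 than in I80 (limma adjusted p = 0.000382 and 0.000575). Of 6 regulators of heat shock factors, 4 fell in I80 and 2 were not called, with Hsbp1 falling by 1.75-fold, and 1 rose and 3 fell in DI150.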

How the data were processed

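Total RNA of 6 libraries was measured. The deposited values are CPM, reads of a gene scaled to an assigned total of 1000000, in 1 table made by the authors. Per the submitters' processing notes, STAR and the mm10 build were used. Not given in the sources used here were the gene counter, the annotation, the handling of shared reads and the use of strand. The protocols describe ribosomal RNA depletion more than once, and the 1 with 200 ng RNA was taken. The second DI150 column carries the number 3 and was used as a replicate without a number of its own. The deposited CPM were whole multiples of 1 read for 100.0% of 146724 values, within 1e-06 reads, so the reads and the depth (21017849 to 26608715) were recovered. Gene numbers were matched to symbols for 24374 of 24454 (99.67%).

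Main test: limma 3.58.1 in R 4.3.3, on log2(CPM + 0.5), genes with mean CPM of at least 1 (11428), the 3 groups in 1 fit with 3 residual and 4.52 prior degrees of freedom, and Benjamini-Hochberg adjustment over all tested genes. Log2 differences are on that scale and understate changes of low genes, whereas ratios are of mean CPM. edgeR 4.0.16 and DESeq2 1.42.0 were run on the recovered reads. The 18 alternative settings cover pseudocount, filter, scaling, robust fitting, the 4 libraries compared, a replicate block, these tools and leaving out each library. Scripts were tested on simulated data. Levels per kilobase used exons of GENCODE M21 basic transcripts. Coordinates are of GRCm38 (mm10). Promoters are from RefSeq, and shared windows of 81 bases from the GENCODE transcripts. Members and lists were chosen with earlier results of these data known. From each other list the 2 called genes with the largest rise and fall per comparison were eligible to be named (mean of at least 5 CPM, no overlap). Of these, some that held in every setting are printed, and so is Trib3, which did not hold in every setting. The calls of Ddit3 and Atf4 against PBS are printed outside this rule. The choice of what to print was made after the values were seen.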

Additional observations from a re-analysis of the deposited data

Results flagged for a closer look

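Members whose effects differed between the treated lines, by the limma test of DI150 against I80, were 13. On the log2 scale, DI150 was higher in Pdia6 (0.847), Hspa1b (0.739), Herpud1 (0.511), Hsp90ab1 (0.421), Syvn1 (0.309) and Calr (0.222). It was lower in Sdf2l1 (-0.55), Bag3 (-0.432), Hyou1 (-0.405), Dnaja1 (-0.355), Hspa8 (-0.338), Pdia3 (-0.313) and Canx (-0.286). Of these calls, Pdia6 and Hspa1b held in all 18 alternative settings.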

How the results depend on the processing

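Of the called members, 14 of 21 in I80 against PBS, 11 of 16 in DI150 against PBS and 2 of 13 in DI150 against I80 kept their call in all 18 alternative settings. Deviations of replicate 1 from 2 correlated at 0.0228 between PBS and I80. With those of DI150 replicate 1 from 3, a number the labels do not give, they correlated at -0.0551 (PBS) and 0.213 (I80). These values cannot show whether same-numbered libraries were handled as pairs, and the main test used no replicate block. A replicate block, in which DI150 replicate 3 has its own level and so drops out, gave 2 members higher in DI150 against PBS, and, in DI150 against I80, 3 higher, 1 lower and 2688 genes called. It ended the calls of Dnajb9, Manf, Hyou1, Edem1 and Sel1l in DI150 against PBS (limma adjusted p 0.0519 to 0.413) and 9 of 13 in DI150 against I80 (0.057 to 0.38). Leaving out each library gave, in that last comparison, 2 to 8 members higher, 1 to 9 lower and 2487 to 5972 genes called. Changes of sign occurred in 18 results, none called in the main test or with the sign changed. In I80 against PBS these were Sdf2l1 (0.0101), Ern1 (0.0925) and Hsp90aa1 (-0.0218) with quantile normalization, and Hsp90aa1 in edgeR (-0.00788) and DESeq2 (-0.00694). In DI150 against PBS they were Pdia3 with median-of-ratios scaling and in DESeq2 (0.0101 each), Pdia4 with TMM (-0.00151), quantile (-0.0191), block (-0.046) and edgeR (-0.00243), and Hsp90ab1 with quantile (0.0885). In DI150 against I80 it was Hspd1 with the block (-0.0938). With libraries left out, ranges crossing 0 were, in I80 against PBS, Dnajc3 -0.168 to 0.055, Ern1 -0.0271 to 0.014, Hsp90aa1 -0.163 to 0.166, Hspa5 -0.0305 to 0.171 and Hspa8 -0.0286 to 0.322. In DI150 against PBS they were Ern1 -0.0251 to 0.12, Hsp90ab1 -0.199 to 0.0372, Hsp90b1 -0.262 to 0.113, Hspa1b -0.294 to 0.0867, Hspa5 -0.126 to 0.0762, Hspe1 -0.243 to 0.109, Pdia3 -0.0666 to 0.0614 and Pdia4 -0.0372 to 0.04. In DI150 against I80 they were Ern1 -0.0186 to 0.127, Hsf1 -0.102 to 0.0597, Hsp90b1 -0.213 to 0.162 and Hspd1 -0.00649 to 0.135. The cause was not tested. With 2 libraries per group, changes of small size may be missed, and counting error limits Hspb1 and Hspa1a.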

Other observations

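Summed levels of the members by role are given as a description without a test. The 20 ER members together gave 5660 ± 172 CPM in PBS, 5583 ± 53.4 in I80 and 5416 ± 343 in DI150, and the groups overlapped. The 13 heat shock members gave 6645 ± 866 in PBS, 4907 ± 87.2 in I80 and 5982 ± 210.5 in DI150. Of these sums I80 lay below PBS and DI150 overlapped with it. The HSP90 pair alone was at 5098, 3681 and 4781 CPM. The 4 degradation genes Herpud1, Syvn1, Edem1 and Sel1l summed to 340.5 ± 5.45, 386 ± 13.3 and 397 ± 7.27 CPM, with both treated groups above PBS. The 5 ER co-chaperones and small ER stress proteins summed to 357 ± 3.68, 299 ± 1.05 and 319 ± 6.19 CPM, and the 3 sensors and transcription factors to 246 ± 3.72, 179 ± 4.66 and 193 ± 8.44 CPM, with both treated groups below PBS in each. Antioxidant response elements, searched as TGACNNNGC on both strands, were in the promoters of 5 of 17 ER members and 2 of 9 heat shock members. Of all genes with a promoter, 13.99% held one.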
